A study of Mus musculus with 24 samples.

Results

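The 16 to 20 h step of CD4+ T cell activation was read from 6 of the 24 RNA sequencing libraries: the Th0, Th1 and Th2 cultures at 16 h and the same 3 conditions at 20 h, paired by condition, across 22009 named genes. CD4+ cells had been purified from spleens of WT C57BL/6 mice by magnetic negative selection and pooled, per the labels, while the methods of the study call the sequenced cells naive. Every library of the time course goes back to 1 pool of cells. All 6 cultures carried plate-bound anti-CD3, which triggers the T cell receptor, and soluble anti-CD28, which gives the second signal. Th0 cultures had nothing else. To Th1 cultures recombinant IL-12 and anti-IL-4 had been added, and to Th2 cultures recombinant IL-4 together with antibodies to IFN-γ and IL-12. Each condition was sequenced once at each time point. The 3 conditions therefore stood in for replicates, and p-values measure how alike the step was in Th0, Th1 and Th2 cultures of 1 cell pool, not how it would vary between mice. Levels are RPKM, in which a gene's reads are divided by its transcript length and by the depth of the library.

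A resting T cell is held out of the cell cycle. After activation it first grows, building ribosomes and switching its metabolism, and it copies its DNA many hours later. Entry into S phase runs through E2F transcription factors, which are kept silent by retinoblastoma proteins until cyclin-dependent kinases release them and which then switch on the genes of DNA replication. Genes of mitosis follow and are controlled largely through promoter elements called CHR and CCAAT boxes. In parallel, transcripts of the quiescent state, such as Klf2 and Il7r, are shut down.

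Among the 34 pathway lists examined, those of DNA replication and of mitosis had the largest median rises. Of 56 DNA replication genes, 51 rose and 0 fell, with a median log2 change of 0.59, and of 66 genes of mitosis 38 rose and 2 fell (median 0.51). Of 57 interferon response genes 26 fell and 2 rose (median -0.31), and of 38 genes of the naive and quiescent state 19 fell and 1 rose (median -0.22). Ribosome biogenesis genes, a hallmark of the growth phase, had a median of 0.05, with 2 of 63 higher. The background was as follows. Of 10546 genes tested with limma, 1636 (15.5%) passed an adjusted p of 0.05, of which 833 (7.9% of those tested) were higher and 803 (7.61%) lower at 20 h, and the median log2 change over all tested genes was -0.00012. A set of 48 genes (0.455%) also changed at least 2-fold, 34 upwards and 14 downwards. Leaving out the Th0 cultures lowered the number of calls to 823, and leaving out Th1 or Th2 gave 1244 and 2126.

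**Figure D1:**
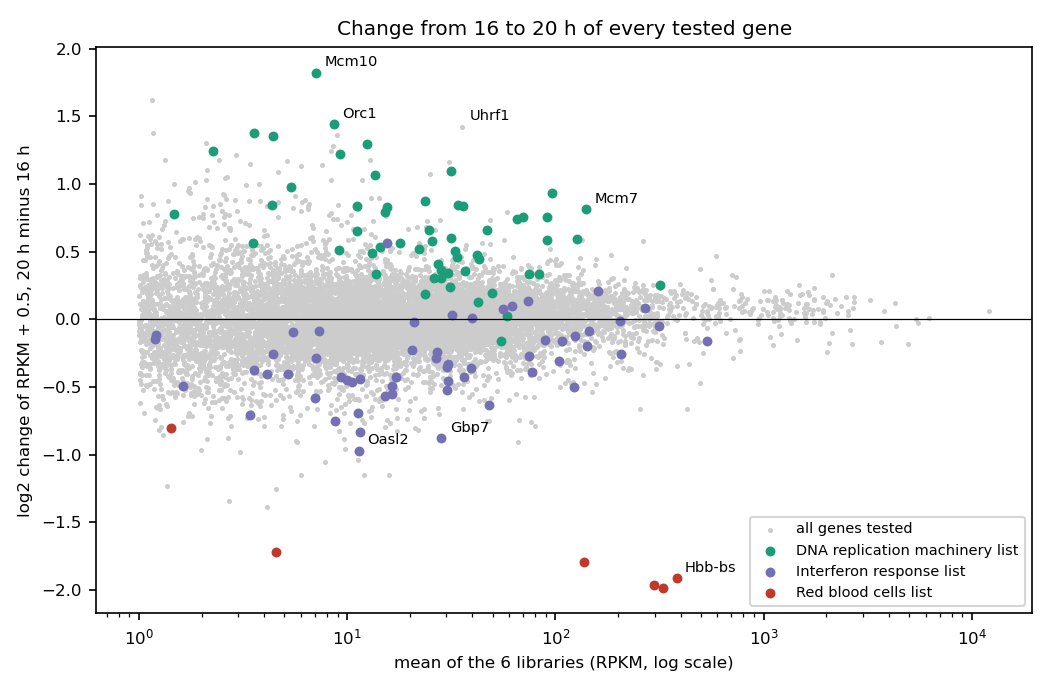
Log2 change from 16 to 20 h (vertical axis, fitted over the 3 conditions) against the mean of the 6 libraries (horizontal axis, RPKM, log scale) for the 10546 genes tested, 1 point per gene. Replication genes (green) lie mostly above 0 and up to 1.82, interferon response genes (purple) mostly below 0, and the red blood cell genes (red) sit lowest, down to -1.98.

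The 6 libraries had 21461181 to 32431411 mapped reads, as recovered from the RPKM values. The cultures were T cells by their markers, with Cd3e at 138 to 179 RPKM and Cd4 at 173 to 216 RPKM, and 0 of 10 T cell markers passed the test. Cd8a was at 1.36 to 2.04 RPKM. Transcripts of red blood cells, B lineage cells and monocytes were also present, and their values are given after the T cell genes. The Th1 culture at 16 h stood apart from its neighbours in time: relative to 16 h, the median of the interferon list at 12 h was -0.49 in Th1 but 0.30 in Th0 and 0.24 in Th2, and that of the naive-state list was -0.16 for Th1, 0.20 for Th0 and -0.01 for Th2. Results on those lists are therefore given also without the Th1 cultures.

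Promoter sequences of the genes that carry the step are printed here because 3 groups of them share short motifs. They come from RefSeq (GRCm38.p6, bases upstream of a single transcript start per gene), are written 5′ to 3′ along the gene's strand, and have motif matches in capitals. The gene models of Cdc6, Mcm7 and Top2a begin further upstream, so their stretches lie wholly (Cdc6) or partly (Mcm7, Top2a) within the gene. The replication genes Cdc6, Mcm7, Mcm5 and Mcm6 were the called members of their list with the largest rise that had an E2F-type match (TTTCCCGC or TTTGGCGC, either strand) upstream of the start.

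Cdc6 (chr11:98907921-98908040, plus strand): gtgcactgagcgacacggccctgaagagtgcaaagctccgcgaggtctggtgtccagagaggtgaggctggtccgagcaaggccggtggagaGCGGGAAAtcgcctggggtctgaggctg

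Mcm7 (chr5:138172021-138172133, minus strand): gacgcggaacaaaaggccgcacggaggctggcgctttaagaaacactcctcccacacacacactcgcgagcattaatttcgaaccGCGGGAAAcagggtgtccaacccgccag

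Mcm5 (chr8:75109268-75109387, plus strand): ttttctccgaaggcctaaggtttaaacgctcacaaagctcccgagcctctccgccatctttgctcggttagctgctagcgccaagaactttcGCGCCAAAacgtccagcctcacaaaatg

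Mcm6 (chr1:128359725-128359844, minus strand): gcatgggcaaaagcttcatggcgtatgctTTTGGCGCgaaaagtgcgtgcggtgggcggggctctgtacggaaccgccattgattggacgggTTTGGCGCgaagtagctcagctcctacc

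Mcm6 holds TTTGGCGC at 2 places, with the nearer one starting 47 bases before the start. For the mitotic genes Top2a and Ncapg the capitals mark a CHR-type match (TTTGAA, either strand), 23 and 30 bases before the start.

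Top2a (chr11:99024190-99024309, minus strand): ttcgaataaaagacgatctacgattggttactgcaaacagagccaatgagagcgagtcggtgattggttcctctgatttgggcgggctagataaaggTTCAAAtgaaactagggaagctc

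Ncapg (chr5:45669801-45669920, plus strand): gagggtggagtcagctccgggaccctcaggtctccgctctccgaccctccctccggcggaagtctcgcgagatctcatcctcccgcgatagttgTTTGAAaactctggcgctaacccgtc

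For the falling interferon response genes Gbp7, Gbp3 and Stat2 they mark an ISRE-type match (a pair of TTTC blocks 2 bases apart, on either strand).

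Gbp7 (chr3:142530193-142530312, plus strand): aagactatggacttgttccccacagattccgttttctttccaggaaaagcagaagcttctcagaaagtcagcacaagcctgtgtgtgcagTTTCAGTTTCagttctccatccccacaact

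Gbp3 (chr3:142559915-142560034, plus strand): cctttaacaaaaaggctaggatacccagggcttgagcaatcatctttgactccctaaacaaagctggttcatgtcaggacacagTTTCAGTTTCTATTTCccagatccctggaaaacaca

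Stat2 (chr10:128270248-128270305, plus strand): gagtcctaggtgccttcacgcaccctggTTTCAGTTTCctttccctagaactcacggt

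A promoter of 300 bases, from 250 before to 50 after the start, was found for 8025 of the 10546 tested genes. An E2F-type match was held by 62 of 625 genes called higher (9.92%), by 11 of 584 called lower (1.88%) and by 270 of all 8025 (3.36%), and by 13 of 45 replication genes (28.9%). ISRE-type matches ran the other way, with 2.72% of genes called higher, 8.22% of those called lower, 3.23% of all and 19 of 43 interferon response genes (44.2%). CHR-type matches were in 15.8%, 11.8% and 11.9%, and in 36 of 54 mitotic genes (66.7%). CCAAT, the NF-Y-type motif, was in 47.8% of genes called higher, 40.8% of those called lower and 39.8% of all, and matches of different motifs may overlap. These shares describe letters in a window and were not tested.

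Replication starts with loading of the MCM2-7 helicase onto origins by the origin recognition complex, Cdc6 and Cdt1. Orc1, the largest subunit of that complex, was at 3.97, 3.35 and 6.10 RPKM in Th0, Th1 and Th2 at 16 h and at 10.6, 11.5 and 16.6 RPKM at 20 h. It rose by 1.44 on the log2 scale (SE 0.10, adjusted p = 4.76e-05). All 20 h cultures were above all 16 h cultures. By contrast the subunits Orc2, Orc3 and Orc4, with log2 changes of 0.13, 0.02 and -0.16, did not pass (adjusted p = 0.181, 0.801 and 0.121), while Orc6 rose by 0.52 (adjusted p = 0.00132). Cdc6 went from 3.004, 1.31 and 2.51 RPKM to 4.65, 6.08 and 8.84 RPKM, a log2 change of 1.35 (SE 0.21, adjusted p = 0.00282). Its change was smallest in Th0 (0.56 against 1.86 in Th1 and 1.64 in Th2). Cdt1 rose by 0.37 and its inhibitor geminin (Gmnn) by 0.87, from 13.95, 15.9 and 19.4 RPKM to 24.9, 27.7 and 39.8 RPKM (adjusted p = 0.0103 and 9.22e-05).

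The helicase subunits rose together from levels that were already high. Mcm3 changed by 0.93, Mcm7 by 0.81, Mcm5 by 0.76, Mcm4 by 0.75, Mcm6 by 0.59 and Mcm2 by 0.58 on the log2 scale, with adjusted p from 5.03e-05 to 0.000478. Mcm7, the most abundant of them, was at 90.3, 84.8 and 132 RPKM at 16 h and at 152, 165 and 219 RPKM at 20 h, so the ranges did not overlap. Of the helicase activation factors, Mcm10, Cdc45 and Gins1 changed more, while Dbf4, given below, changed less than any subunit of the helicase. Mcm10, which helps turn the loaded helicase into a moving one, had the largest rise among the genes called: 2.63, 2.03 and 4.08 RPKM became 9.79, 10.3 and 13.8 RPKM (log2 change 1.82, SE 0.12, adjusted p = 2.66e-05). Cdc45, a helicase cofactor, went from 5.62, 5.35 and 10.5 RPKM to 15.0, 17.2 and 20.9 RPKM (log2 change 1.30, SE 0.11, adjusted p = 0.000125). Gins1, of the same complex, rose by 1.06. Dscc1, part of a loader of the sliding clamp, rose by 1.24. Outside the list, Dtl, which targets Cdt1 for destruction, Pbk, a mitotic kinase, and BC030867 were also among the 12 largest rises, with log2 changes of 1.28, 1.30 and 1.37. At 16 h Pbk stood at 0.733 to 1.16 RPKM and BC030867 at 0.287 to 0.658 RPKM. Both reached the filter of a mean of 1 RPKM through their 20 h levels, so their calls are no support for a rise.

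At the fork itself the changes were graded. Lig1, the ligase that joins Okazaki fragments, rose by 1.09 from 19.1, 15.5 and 25.6 RPKM to 36.6, 39.7 and 52.9 RPKM (SE 0.08, adjusted p = 5.57e-05). Pole, the leading-strand polymerase, rose by 0.83 (adjusted p = 0.000155). Pcna, the sliding clamp, already stood at 297, 280 and 292 RPKM and reached 334, 341 and 362 RPKM, a log2 change of only 0.25 (SE 0.05, adjusted p = 0.0094). Clspn, which links stalled forks to the checkpoint kinase, rose by 1.38 (SE 0.14, adjusted p = 0.000293), and Chaf1a, which deposits histones behind the fork, by 1.22 (SE 0.10, adjusted p = 6.8e-05). Dbf4 (0.18) and Rnaseh2a (0.24) were the remaining members that did not pass, at adjusted p = 0.103 and 0.0571. In 49 of the 56 genes the 20 h range lay clear of the 16 h range, against 19.4% of all tested genes.

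**Figure D2:**
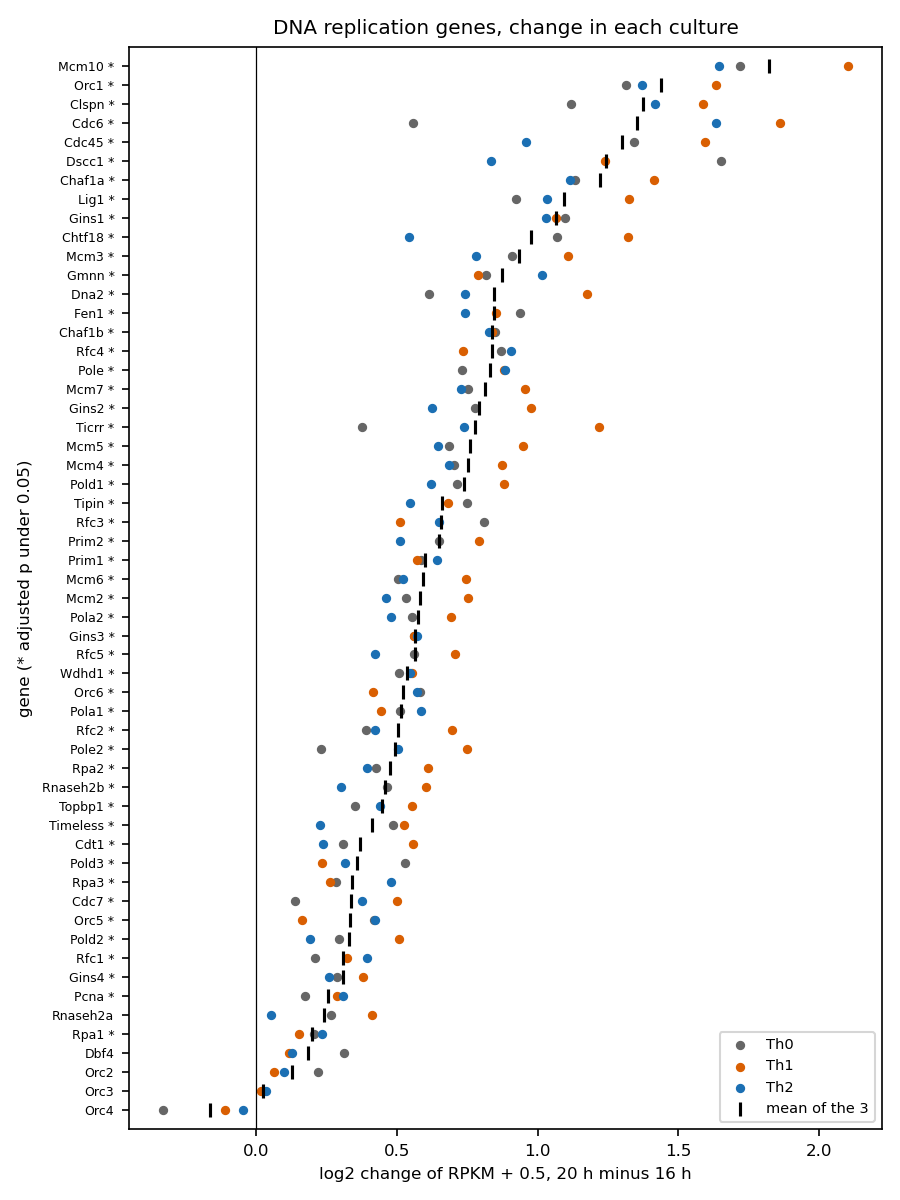
Log2 change of RPKM + 0.5 from 16 to 20 h (horizontal axis) of the 56 replication genes (vertical axis, sorted), with 1 point per condition and a black bar at the mean of the 3. An asterisk marks an adjusted p under 0.05. All 3 points lie right of 0 for 55 genes, and Orc4 alone has all 3 on the left.

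Levels of the replication genes differed between conditions before and after the step. The Th2 culture was the highest of the 3 for 48 of the 56 genes at 16 h and for 50 at 20 h, and the median log2 difference of Th2 from Th0 was 0.38 and then 0.37. The change over the step had a list median of 0.56 for Th0, 0.70 for Th1 and 0.55 for Th2. With 1 library per condition and time these differences could not be tested.

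Genes that supply deoxynucleotides were higher too. Among 10 genes of deoxynucleotide synthesis 7 rose and 1 fell (median 0.42). Rrm2, the regulated subunit of ribonucleotide reductase, was at 5.83, 7.54 and 9.70 RPKM at 16 h and at 15.3, 15.8 and 22.7 RPKM at 20 h (log2 change 1.18, SE 0.09, adjusted p = 5.57e-05), and its partner Rrm1 rose by 0.73. Dut, which keeps uracil out of DNA, rose by 0.73, Tyms by 0.46 and Tk1 by 0.38. The one member that fell was Samhd1, a triphosphohydrolase that breaks deoxynucleotides down: 682, 665 and 133 RPKM became 550, 470 and 117 RPKM (log2 change -0.33, SE 0.06, adjusted p = 0.00767). Its level in Th2 was far below that in Th0 and Th1 at both times, so the ranges overlapped. Synthesis of purines, pyrimidines and one-carbon units moved less, with 9 of 22 genes higher and 0 lower (median 0.17), among them Atic at 0.40 and Prps1 at 0.43, and 3 higher without Th0 or 5 without Th1. Of 61 replication-dependent histone genes listed by the files, 11 passed the filter on level, and of these 2 rose and 1 fell, against 5 and 2 of 13 without Th2 and 1 and 0 of 10 without Th0. Hist1h3a, with 0, 10 and 6 reads at 16 h and 26, 32 and 26 reads at 20 h, passed that filter through its 20 h level alone, so its call is no support for a rise.

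Among 30 genes of the E2F and G1 to S control, 10 rose and 2 fell (median 0.20). E2f1, the activator named above, went from 2.95, 2.91 and 4.99 RPKM to 7.24, 7.71 and 10.2 RPKM (log2 change 1.13, SE 0.11, adjusted p = 0.000188). Ccne1, the cyclin of S phase entry, rose by 0.74, Ccna2 by 0.91 and the phosphatase Cdc25a by 0.53. Cdk1 went from 3.43, 4.85 and 6.09 RPKM to 9.92, 10.8 and 15.0 RPKM (log2 change 1.24, SE 0.10, adjusted p = 6.9e-05). Both members that fell encode inhibitors of cyclin-dependent kinases. Cdkn1a (p21) went from 23.7, 29.0 and 25.9 RPKM to 20.5, 23.3 and 16.5 RPKM and Cdkn1b (p27) from 34.1, 35.6 and 17.0 RPKM to 28.9, 21.7 and 13.2 RPKM, with log2 changes of -0.38 and -0.43 (adjusted p = 0.0157 and 0.0111).

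DNA repair and maintenance genes rose as well, 24 of 42 with 0 lower (median 0.36). Uhrf1, which guides DNA methyltransferase 1 to newly copied DNA, had the smallest SE among the 12 largest rises: 16.7, 15.5 and 25.6 RPKM became 45.1, 47.3 and 63.2 RPKM (log2 change 1.42, SE 0.07, adjusted p = 5.32e-06). Brca1 rose by 1.04, Exo1 by 1.11 and Fancd2 by 1.02. Uhrf1 was also counted among 13 genes of DNA methylation and the Polycomb complexes, of which 7 rose and 1 fell. Those that rose included Dnmt1 (0.56), the helicase Hells (1.16) and Ezh2 (0.58), the catalytic subunit of Polycomb complex 2. Its paralogue Ezh1 fell by 0.26 (adjusted p = 0.0329). Without Th0, 4 of the 13 rose. Of 26 p53 targets 6 fell and 0 rose, with Trp53inp1 lowest at -0.76 (adjusted p = 0.000125), from 96.9, 103 and 87.3 RPKM to 64.8, 55.5 and 49.0 RPKM.

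Many mitotic genes rose from lower levels. Top2a, the topoisomerase that untangles copied chromosomes, was at 14.9, 16.3 and 16.3 RPKM at 16 h and at 31.1, 31.9 and 39.1 RPKM at 20 h (log2 change 1.07, SE 0.07, adjusted p = 4.76e-05). Aurkb, the kinase of the chromosomal passenger complex, went from 2.74, 3.10 and 3.11 RPKM to 6.61, 7.58 and 7.84 RPKM (log2 change 1.17, SE 0.11, adjusted p = 0.000153). The checkpoint kinases Bub1 and Bub1b rose by 1.18 and 1.03 and the condensin subunit Ncapg by 0.87. The 2 members called lower were the kinesin Kif15 (-0.47) and the phosphatase Cdc25b (-0.29), with adjusted p = 0.0103 and 0.0493. Smc4, an abundant member of the list, did not rise, at 184.1, 174.4 and 193.6 RPKM and then 178.3, 153.1 and 195.5 RPKM. With no filter on low values 16 of 76 mitotic genes rose, and with all 18 cultures in 1 fit 10 of 66 did. Of the 20 that reached a mean of 5 RPKM, 12 rose.

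The steps on either side put the rise in time. Relative to 16 h, the median of the replication list at 12 h was -0.39 for Th0, -0.34 for Th1 and -0.49 for Th2, and at 24 h it was 1.12, 1.14 and 1.07. Mcm10 was at 12.1 and 10.7 RPKM in the 2 resting libraries, fell to between 1.28 and 1.57 RPKM at 12 h, and reached 22.3, 26.2 and 29.9 RPKM at 24 h. Rrm2 was higher in the resting libraries, at 139 and 135 RPKM, than at any later time, and Top2a, at 77.0 and 72.9 RPKM, was above both resting libraries only in Th2 at 24 h, at 99.3 RPKM. The change from 16 to 20 h was set against those from 12 to 16 h and from 20 to 24 h in a fit over 12 cultures. In both limma tests 0 of 10556 genes passed (0%), with 498 and 582 genes at an unadjusted p under 0.05. No gene was thus shown to change differently from the neighbouring steps, which does not show that the steps were alike.

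**Figure D3:**
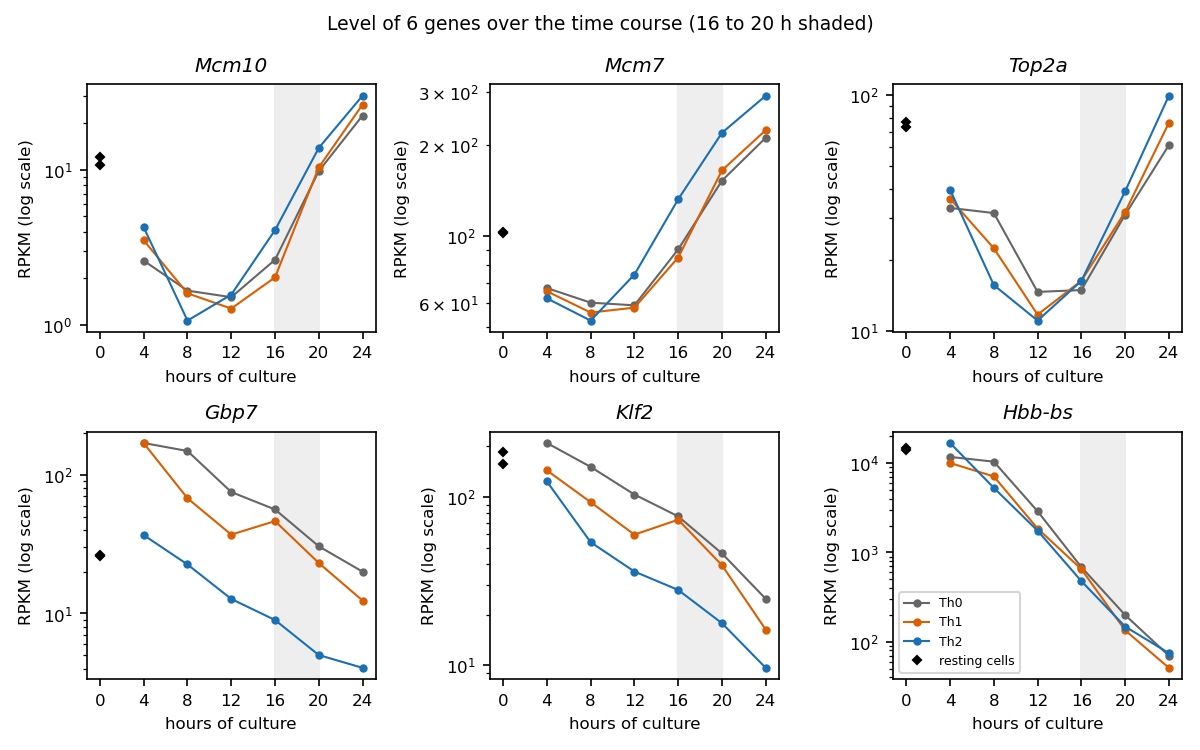
RPKM (vertical axes, log scale) of 6 genes against hours of culture in Th0 (grey), Th1 (orange) and Th2 (blue), 1 library per point, with the 2 resting libraries as black diamonds at 0 h and the 16 to 20 h step shaded. Mcm10, Mcm7 and Top2a climb through the shaded step, Gbp7, Klf2 and Hbb-bs fall through it, and Gbp7 and Klf2 in Th1 are higher at 16 h than at 12 h.

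Energy metabolism shifted upwards by small amounts in many genes. Of 22 glycolysis genes 8 rose and 0 fell (median 0.16). Tpi1, the triose phosphate isomerase, went from 95.1, 103 and 126 RPKM to 145, 163 and 178 RPKM (log2 change 0.59, SE 0.05, adjusted p = 0.000155), and Eno1, Gapdh and Ldha rose by 0.37, 0.33 and 0.31. Nuclear genes for oxidative phosphorylation gave 27 of 78 higher and 0 lower (median 0.16), led by Sdhd, a subunit of succinate dehydrogenase, at 73.2, 77.0 and 89.1 RPKM and then 108, 108 and 108 RPKM (log2 change 0.44, adjusted p = 0.00174). Mitochondrial ribosomal proteins gave 20 of 76 higher and 0 lower (median 0.16). Leaving out Th0 reduced the glycolysis, oxidative phosphorylation and mitochondrial ribosome counts to 5, 5 and 3, and leaving out Th2 gave 13, 33 and 37. Without Th1 12 mitochondrial ribosomal protein genes rose. Of 13 genes encoded by mitochondrial DNA itself, 0 rose and 2 fell. Cytosolic ribosomal proteins gave 5 of 82 higher (median 0.07), 0 after quantile normalization or without Th0, and 12 without Th1. Cholesterol and fatty acid synthesis gave 2 of 30, with the desaturase Scd2 at 0.72. Of 25 genes of amino acid supply and ATF4 targets 4 rose and 2 fell (median -0.04). Those that rose were the serine synthesis enzymes Phgdh (0.45), Psat1 (0.36) and Psph (0.35) and the folate enzyme Mthfd2 (0.25), and Trib3 and Ddit4 fell by 0.72 and 0.42.

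**Figure D4:**
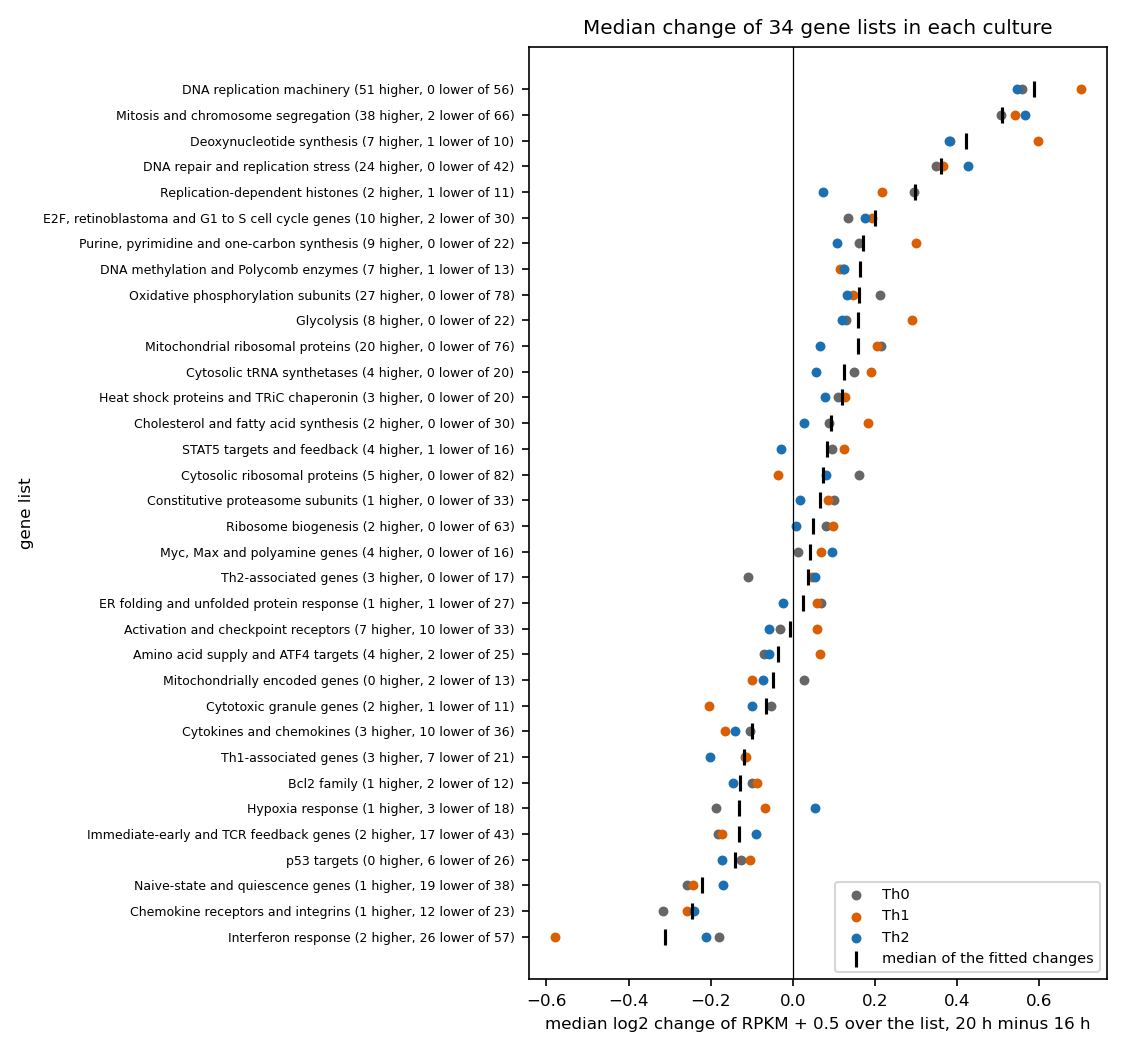
Median log2 change of RPKM + 0.5 from 16 to 20 h (horizontal axis) over each of 34 gene lists (vertical axis, sorted), with 1 point per condition and a black bar for the fit over the 3. Counts in the labels are members called higher and lower of those tested. Replication is at the top at 0.59 and the interferon response at the bottom at -0.31, where Th1 (-0.58) lies apart from Th0 (-0.18) and Th2 (-0.21).

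Interferon response genes are switched on in cells that sense type I interferon or IFN-γ. Ifng itself was at 65.0, 500 and 73.0 RPKM at 16 h and at 75.1, 428 and 75.0 RPKM at 20 h and was not called (adjusted p = 0.961). Oasl2, an antiviral gene, fell by 0.97 from 20.5, 22.1 and 3.18 RPKM to 12.2, 9.24 and 1.38 RPKM (SE 0.11, adjusted p = 0.000478). Gbp7, a guanylate-binding protein gene, fell from 56.2, 46.4 and 8.98 RPKM to 30.5, 23.1 and 5.02 RPKM (log2 change -0.88, SE 0.07, adjusted p = 7.67e-05). Samd9l (-0.84), Rtp4 (-0.75), Oas2 (-0.71) and the RNA sensor Ddx58 (-0.69) fell too. In each of these the Th2 cultures, which contain anti-IFN-γ, were lowest at both times, and no gene of the list had ranges that were clear of each other between times.

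Some regulators of the response fell as well, set beside a list median of -0.31. Irf7 fell by 0.56, Stat2 by 0.49 and Irf1 by 0.26, from 306, 304 and 58.0 RPKM to 262, 258 and 46.8 RPKM (adjusted p = 0.0355, 0.00656 and 0.00832). The 2 members called higher were Psmb8, an immunoproteasome subunit, which rose by 0.21 (adjusted p = 0.0232), and Ifitm2. Abundant members moved little in Th0. Ifi47 went from 349.6, 330.1 and 107.8 RPKM to 382.3, 333.5 and 116.7 RPKM. Gbp2 went from 738.6, 806.4 and 123.6 RPKM to 754.9, 704.3 and 98.41 RPKM. Igtp went from 439.8, 445.8 and 74.77 RPKM to 454.7, 412.6 and 70.13 RPKM. The summed list went from 4732, 5041 and 1382 RPKM to 4543, 4196 and 1302 RPKM. The fall was deepest in Th1, at a list median of -0.58 against -0.18 in Th0 and -0.21 in Th2. At 16 h 48 of the 57 genes were highest in Th1, and at 20 h 19 were highest in Th1 and 37 in Th0. Without the Th1 cultures 19 genes of the list still fell, and without Th2 35 did.

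**Figure D5:**
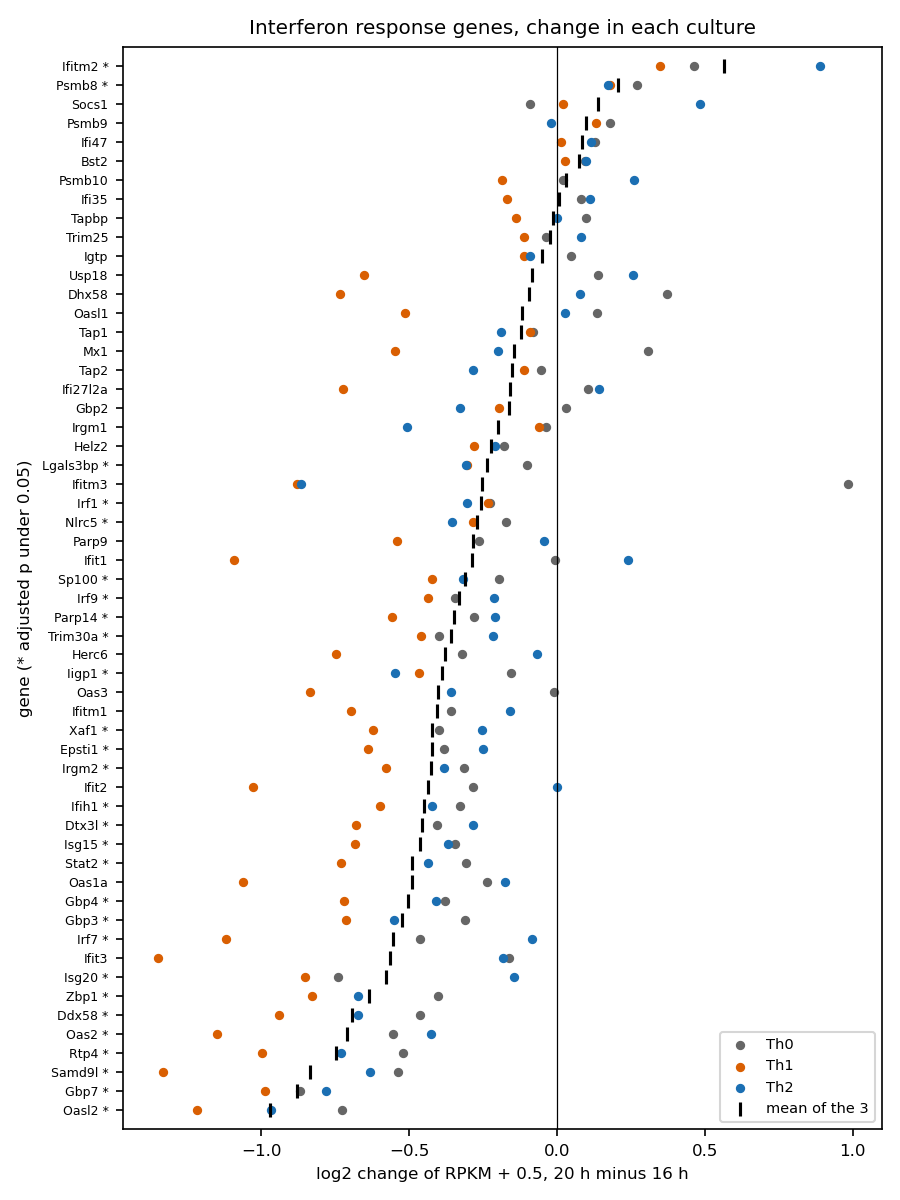
Log2 change of RPKM + 0.5 from 16 to 20 h (horizontal axis) of 56 of the 57 interferon response genes (vertical axis, sorted), with 1 point per condition and a black bar at the mean of the 3. An asterisk marks an adjusted p under 0.05. The Th1 point (orange) lies leftmost of the 3 for 45 of the 56 genes drawn, and all 3 points lie left of 0 for 37.

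The Ifitm genes, small interferon-induced membrane protein genes, did not move as a block. Ifitm2 rose from 13.95, 16.8 and 7.31 RPKM to 19.4, 21.5 and 13.97 RPKM (log2 change 0.57, SE 0.10, adjusted p = 0.00603), with ratios of reads of 1.39 (Th0), 1.28 (Th1) and 1.91 (Th2). Ifitm1 was at 5.71, 8.15 and 4.25 RPKM and then at 4.34, 4.83 and 3.76 RPKM, just short of the threshold (log2 change -0.40, adjusted p = 0.0528). Ifitm3 went in different directions in different cultures, from 2.64 to 5.70 RPKM in Th0, from 10.1 to 5.24 RPKM in Th1 and from 1.98 to 0.861 RPKM in Th2, and was not called (adjusted p = 0.595). In reads these are 43 and 83, 221 and 103, and 34 and 18.

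Genes of the naive state were lower at 20 h. Klf2, the transcription factor that holds T cells in quiescence, went from 76.7, 73.3 and 28.1 RPKM to 46.2, 39.4 and 17.8 RPKM (log2 change -0.75, SE 0.07, adjusted p = 0.000125). Its target S1pr1, the receptor for exit from lymph nodes, fell by 0.70. Il7r, the survival receptor of resting T cells, went from 63.4, 77.1 and 16.5 RPKM to 36.2, 35.1 and 11.6 RPKM (log2 change -0.81, SE 0.10, adjusted p = 0.000897). Pik3ip1, an inhibitor of PI3 kinase, fell by 0.83 and Tsc22d3 by 0.75. Actn1 was the single member that rose (0.20, adjusted p = 0.0312). Tcf7, Ccr7 and Foxo1 were not called, with log2 changes of -0.14, 0.16 and 0.01. Without the Th1 cultures 17 of these genes fell, and without Th0 13. Trafficking receptors and integrins gave 12 of 23 lower and 1 higher (median -0.24), with Cxcr4 at -0.77 and the chemokine receptor Ccr4 at 0.42 as the exception. Without Th0 or without Th1, 6 and 7 of them fell.

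Early signalling genes of the T cell receptor were also lower, 17 of 43 against 2 higher. Nr4a1, an immediate-early nuclear receptor, went from 434, 313 and 280 RPKM to 329, 248 and 217 RPKM (log2 change -0.37, SE 0.05, adjusted p = 0.00117). Dusp1, a phosphatase that restrains MAP kinases, fell by 0.59 and Cd69 by 0.38. The exceptions were the transcription factors Irf8 (0.45) and Batf (0.43). Without Th0, 10 of them fell. Among 33 activation and checkpoint receptors 7 rose and 10 fell, so this group was split, and without Th0 or Th1 3 and 4 rose. Lag3, an inhibitory receptor, rose by 0.56 from 32.4, 26.9 and 48.9 RPKM to 47.1, 44.6 and 66.2 RPKM (adjusted p = 0.000762), and the ligand Cd274 fell by 0.55 from 91.3, 85.9 and 55.1 RPKM to 61.2, 58.0 and 38.1 RPKM (adjusted p = 0.000222).

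Of 36 cytokine genes 10 fell and 3 rose. Xcl1, a chemokine, went from 489, 700 and 401 RPKM to 346, 359 and 278 RPKM (log2 change -0.66, SE 0.08, adjusted p = 0.000866), and Cxcl10, an IFN-γ target, fell by 0.79. Il2, the T cell growth factor, rose from 75.2, 81.3 and 89.5 RPKM to 90.3, 93.5 and 131 RPKM (log2 change 0.34, SE 0.07, adjusted p = 0.0107). Without the Th0 cultures 5 cytokine genes fell. Of 21 Th1-associated genes 7 fell and 3 rose (median -0.12). Ifngr1, a subunit of the IFN-γ receptor, went from 98.0, 116 and 41.6 RPKM to 65.0, 53.9 and 28.4 RPKM (log2 change -0.74, adjusted p = 0.00106). The IL-12 receptor subunit Il12rb1 rose by 0.44 and Cd226 by 0.51. Tbx21, which encodes the Th1 regulator T-bet, rose by 0.45 overall (adjusted p = 0.0207), from 22.6, 29.1 and 4.04 RPKM to 36.1, 44.3 and 4.30 RPKM, and its change was 0.66 for Th0, 0.60 for Th1 and 0.08 for Th2. Gata3, the Th2 regulator, was at 18.1, 8.14 and 21.8 RPKM and then at 14.7, 8.59 and 34.4 RPKM and was not called (log2 change 0.14, adjusted p = 0.513). Csf1, a macrophage growth factor, had the largest excess of the Th2 change over the others among genes whose mean reached 5 RPKM: it went from 12.5 to 23.9 RPKM in Th2, from 3.94 to 2.62 RPKM in Th0 and from 2.13 to 1.78 RPKM in Th1. St8sia6, a sialyltransferase gene, went from 3.86 to 5.59 RPKM in Th2 but from 13.0 to 7.28 RPKM in Th0 and from 12.7 to 7.49 RPKM in Th1. These differences between conditions rest on 1 library each and were not tested.

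The largest falls of the step were in red blood cell genes. Of 9 such genes with values 6 passed the filter, and all 6 were lower, 5 of them at least 2-fold, with a median of -1.86. Slc4a1 stood at 2.31, 2.38 and 1.22 RPKM at 16 h and at 0.869, 0.709 and 1.08 RPKM at 20 h. It passed the filter through its 16 h level, so its call is no support for a fall. Hbb-bs, an adult beta-globin gene, went from 686, 651 and 478 RPKM to 199, 134 and 148 RPKM (log2 change -1.91, SE 0.09, adjusted p = 5.32e-06), and Alas2, the red cell enzyme of haem synthesis, fell by 1.72. Globin transcripts had stood at 13990 and 15010 RPKM for Hbb-bs in the resting libraries, and their share of summed RPKM was 0.246 to 0.344% at 16 h and 0.0634 to 0.0994% at 20 h. Immunoglobulin genes were lower too, 9 of 10 tested (median -0.97), among them Ighv6-5 at -1.26, Igkv4-69 at -1.15 and Igkv4-71 at -1.15. The 12 largest falls also held Prg2, which encodes an eosinophil granule protein, at 4.32, 9.57 and 4.48 RPKM and then 3.67, 1.03 and 1.63 RPKM (log2 change -1.39, SE 0.34, adjusted p = 0.0237), and its change was -0.72 without Th1. Its Th0 ratio of reads was 0.849 (95% interval 0.607 to 1.18), so the conditions were not alike in size and Th0 lay within counting error. The others of the 12 were Trav15-2-dv6-2, a T cell receptor segment (-1.35), Ugt3a1 (-1.23) and Cd7 (-1.15). Ugt3a1 stood at 0.523 to 0.733 RPKM at 20 h and passed the filter through its 16 h level, so its call is no support for a fall. In a bulk culture fewer cells of a type and less RNA per cell cannot be told apart. Of the monocyte and macrophage list 5 of 20 genes passed the filter and 2 fell, with Csf1r at 1.76 to 2.43 RPKM in all 6 libraries and the summed list at 38.6 to 67.4 RPKM at 16 h and 29.2 to 42.2 RPKM at 20 h. Of B cell markers 1 of 8 fell (Fcrla, whose mean was under 1 RPKM at 20 h), of dendritic cell markers 1 of 2 (Ccl17), of NK, granulocyte (a list without Prg2) and platelet markers 0, and of CD8 T cell markers 1 of 2 rose (Cd8b1, with a range of 5.11 to 5.61 RPKM at 16 h and of 6.54 to 8.12 RPKM at 20 h). Ccl17 had 30 and then 10 reads in Th0, 19 and then 0 in Th1, and a Th2 ratio of 0.89 (95% interval 0.67 to 1.19). It was at 0.395 and 0.0828 RPKM in the resting libraries but at 7.32 RPKM in Th2 at 16 h. The part of cells other than T cells in the other results was not tested. A fit without red blood cell and immunoglobulin genes gave 1656 calls, but it could hardly have come out otherwise. Globin genes held at most 0.344% and immunoglobulin genes at most 0.05715% of summed RPKM in the 6 libraries. The other transcripts of those cells stayed in that fit. Hba-a1 and Hba-a2 are near-identical copies, as are Hbb-bs and Hbb-bt, and their separate values are uncertain. The immunoglobulin segments and the Gbp genes belong to families of related sequence, so their separate values are less certain too.

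A set of 5 leading genes lies on different chromosomes, in GRCm38.p6 coordinates of RefSeq gene models. Mcm10 lies at chr2:4990724-5012791, Orc1 at chr4:108575705-108616030, Uhrf1 at chr17:56303337-56323486, Cdc45 at chr16:18780447-18811972 and Rrm2 at chr12:24708254-24714146.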

How the data were processed

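RNA of CD4+ T cells was sequenced on a NextSeq instrument, and the authors deposited RPKM values in 1 table with 22010 entries for 24 libraries, 1 entry without a name and with a sum of 0, which was left out. The submitters' processing notes name BWA and GRCm38, and its version and the counting rules are not given in the sources used here. Columns were matched to samples by title. Here log2(RPKM + 0.5) of the 6 libraries at 16 and 20 h was fitted with limma 3.58.1 in R 4.3.3 (intensity trend, culture condition as a block, genes whose mean reached 1 RPKM), with Benjamini-Hochberg adjustment over 10546 genes and a threshold of 0.05. A fold change on this scale understates the change of low genes. A fit of 12 cultures compared neighbouring steps. Mapped reads per library (17512385 to 33017133 over the 24) were recovered from the RPKM steps, and 3199 of the tested genes (30.3%) gave whole reads within 0.02. Ratios of reads carry exact binomial intervals that cover counting error only, since reads are not independent molecules. The fit was tested on simulated data. Lists were summarised by counts and medians over every tested member, and a few members are not reported by name here.

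A rule listed genes to name: the 12 largest rises and falls, up to 6 called and the 3 most abundant members of each list, the 4 genes with the largest and smallest excess of the Th2 change among those whose mean reached 5 RPKM, and the Ifitm genes. Not every gene of the rule is described. Genes outside the rule, among them Lig1, Pole, Chaf1a, Gmnn, Il2 and Irf1, were chosen after their values were seen. So were members singled out as exceptions or for their promoter. The step, lists and rule were chosen with earlier results of these data known. An exact permutation test over 3 pairs cannot go below p = 0.25 and was not used. Python 3.11.15 with pandas 2.3.3 and scipy 1.17.1 was used. Promoter sequences came from RefSeq.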

Additional observations from a re-analysis of the deposited data

Results flagged for a closer look

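The naming rule listed 87 genes whose reads could be recovered, not all of them described above. Of these, 3 went in opposite directions in different cultures, each by at least 1.25-fold and beyond counting error. Of all 10546 tested genes 203 went opposite ways by that fold, with no check of counting error. Pgpep1l and Scand1 had been named because their Th2 change differed most from those of Th0 and Th1. The count of 3 therefore follows in part from how genes were named. With 1 library per condition and time point the difference was not tested. Ifitm3 changed by 0.98 on the log2 scale in Th0, by -0.88 in Th1 and by -0.87 in Th2, with ratios of reads of 2.16 (95% interval 1.48 to 3.20), 0.521 (0.409 to 0.662) and 0.434 (0.231 to 0.791). Its Th0 level was 4.52 RPKM at 12 h and 2.86 RPKM at 24 h, on either side of 2.64 and 5.70 RPKM.

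Pgpep1l, a peptidase-like gene, changed by 0.73 in Th0 and by -0.49 in Th2, with ratios of 1.73 (1.35 to 2.24) and 0.687 (0.533 to 0.883). Scand1, a SCAN domain gene, changed by 0.74 in Th2 and by -0.34 in Th1, with ratios of 1.69 (1.49 to 1.92) and 0.788 (0.701 to 0.886). In Th2, Scand1 stood at 23.0 RPKM at 12 h and 11.4 RPKM at 24 h.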

How the results depend on the processing

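Of 1556 alternative values of the 113 called genes that the text names, 1297 remained called. All 1556 kept their direction, but this was nearly fixed in advance. Of the 1636 called genes, 1632 went the same way in all 3 conditions, so leaving out a condition could hardly turn a sign. For the lists, 570 of 597 medians moved by less than 1 SD of the 3 conditions. The fits with no intensity trend, with no replicate block and with all 18 cultures return the same log2 changes and could not move a median. The 1636 calls became 448 with no filter on low values, 647 with no intensity trend and 147 (104 higher, 43 lower) with all 18 cultures in 1 fit, all 147 of them among the 1636. Leaving out one condition gave 823 to 2126 calls. Of the genes named, Batf, Ccl17, Cd8b1, Gapdh, Psmb8 and Tbx21 lost their call without Th0, Oas2, Tk1 and Trib3 without Th1, Actn1, Cdc25b, Fcrla, Irf7 and Mthfd2 without Th0 and again without Th1, and Ezh1 without Th0 or Th2. The 48 genes also past 2-fold became 78 with a pseudocount of 0.1, 27 when the mean had to reach 5 RPKM and 4 with no replicate block. Labels give no replicate numbers, and the pairing is by culture condition: with no replicate block 4 genes passed, since differences between conditions then count as error. Other scalings gave 1679 to 1737 calls, and with upper-quartile scaling 54.4% were higher, against 50.9%. In the replication list 51 genes rose, 48 to 51 when a condition was left out and 32 with all 18 cultures. In the interferon list 26 fell, and 9 did so with no filter, 10 with no trend and 2 with all 18 cultures.

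Among genes that were not called, the sign of the log2 change turned when a condition was left out, over ranges of -0.0093 to 0.27 for Cd8a, -0.093 to 0.12 for Ifng, -0.025 to 0.047 for Foxo1, -0.11 to 0.36 for Gata3, -0.36 to 0.35 for Csf1, -0.10 to 0.0049 for Csf1r, -0.87 to 0.058 for Ifitm3, -0.36 to 0.25 for Pgpep1l and -0.24 to 0.30 for Scand1, and for Pgpep1l at -0.0065 after quantile normalization. The cause was not tested. Both differences between steps stayed at 0 calls in every alternative run, with 236 to 923 genes at an unadjusted p under 0.05. Depth limits genes of few reads such as Ifitm3, and the single cell pool limits every p-value.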
